A study of Homo sapiens with 6 samples.

Results

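The genes described here are 10 members of the NF-kB system: the 5 subunit genes RELA, RELB, REL, NFKB1 and NFKB2, and 5 genes that NF-kB is known to activate, NFKBIA, TNFAIP3, BIRC3, CSF1 and LIF. They were chosen by gene symbol, with earlier results of these data known, from the gene tables of the series, which list 39020 genes in all. Contrasts of member shares with those of all genes are therefore descriptions and not tests. All 10 were listed in the RNA-seq tables. The 4 iCLIP tables listed 7 of them and did not list RELB, NFKB2 or BIRC3 under either symbol or gene identifier.

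The material was U2OS, a human osteosarcoma cell line. For iCLIP, U2OS cells carrying FLAG-tagged TIRR (genotype TIRR_FLAG) were taken 4 h after 5 Gy of X-rays (2 libraries) or without treatment (2 libraries). Ultraviolet light had fixed RNA to the proteins it touched, and the RNA that came down with the FLAG antibody was sequenced. For RNA-seq, wild-type U2OS cells gave 1 library 4 h after 5 Gy and 1 library without treatment. The sample labels give X-rays for RNA-seq too, but the design text names gamma rays there, so the source used is uncertain. TIRR, made from NUDT16L1, is an RNA-binding partner of the repair protein 53BP1, and all iCLIP cells carried the tagged form. The labels do not say whether replicate libraries came from separate cultures, so p-values describe only how these libraries vary, and that variation may be technical. No library of cells without the tag was used here, so iCLIP values hold an unknown background.

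NF-kB is a family of dimeric transcription factors built from these 5 subunits, which share a Rel homology domain that binds DNA. In resting cells inhibitors such as the product of NFKBIA hold the dimers in the cytoplasm. Kinases of the IKK complex mark the inhibitor for destruction, and the freed dimers enter the nucleus and switch on genes, among them those of their own inhibitors. Double-strand breaks can start the same chain from inside the nucleus, through the kinase ATM and the IKK subunit NEMO.

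NF-kB dimers bind a short DNA element called the NF-kB consensus site, so the promoters of the members were searched for it on both strands. RefSeq sequence of build GRCh38.p14 was used, in windows of 300 bases, with 250 before and 50 after an annotated transcript start. The table held windows for 7 members and none for RELB, CSF1 and LIF. Of the 7, 6 had at least 1 match, and RELA had none in either of its windows. Over all genes with a window, 7.09% had a match. A looser form, GGG and CC with any 5 bases between them, was found in all 7 members but also in 61.7% of all genes. The 250 bases before the start are shown 5′ to 3′ for 4 members, those whose transcript start in the matched window is the gene's own first base. Matches are in capitals, because they show how near the sites lie to the start.
BIRC3, chr11:102317234-102317483, plus strand: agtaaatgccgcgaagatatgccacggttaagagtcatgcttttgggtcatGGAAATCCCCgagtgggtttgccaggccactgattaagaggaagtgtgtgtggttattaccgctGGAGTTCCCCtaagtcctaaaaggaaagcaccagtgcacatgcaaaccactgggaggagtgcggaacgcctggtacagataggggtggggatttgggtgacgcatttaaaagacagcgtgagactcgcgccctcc
NFKBIA, chr14:35404750-35404999, minus strand: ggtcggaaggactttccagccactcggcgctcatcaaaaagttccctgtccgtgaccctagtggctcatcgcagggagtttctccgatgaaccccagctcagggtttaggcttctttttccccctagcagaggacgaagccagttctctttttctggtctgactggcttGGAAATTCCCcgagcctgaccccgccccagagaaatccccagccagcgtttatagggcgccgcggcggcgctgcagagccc
NFKB1, chr4:102501109-102501358, plus strand: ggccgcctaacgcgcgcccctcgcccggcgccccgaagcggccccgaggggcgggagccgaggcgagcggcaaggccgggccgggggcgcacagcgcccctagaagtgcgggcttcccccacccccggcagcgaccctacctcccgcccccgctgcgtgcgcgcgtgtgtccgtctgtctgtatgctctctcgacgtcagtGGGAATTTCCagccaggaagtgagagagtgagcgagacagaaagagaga
REL, chr2:60881324-60881573, plus strand: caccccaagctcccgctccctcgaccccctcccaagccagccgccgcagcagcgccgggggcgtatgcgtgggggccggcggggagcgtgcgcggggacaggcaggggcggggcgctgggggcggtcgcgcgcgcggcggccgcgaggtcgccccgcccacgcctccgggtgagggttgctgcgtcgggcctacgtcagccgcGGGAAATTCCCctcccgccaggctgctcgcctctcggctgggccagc

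The matches in BIRC3 began 199 and 135 bases before the start, the match in NFKBIA 81 bases before it and that in NFKB1 49 bases before it. The capitals in REL are a pair of matches that overlap, the first of them beginning 47 bases before the start. TNFAIP3 had matches GGAAAGTCCC and GGAAATCCCC, 67 and 55 bases before its start. NFKB2 had matches in 2 of its 3 windows, among them GGGACTTTCC 21 bases before a start. A match describes these letters only; binding was not measured.

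**Figure D1:**
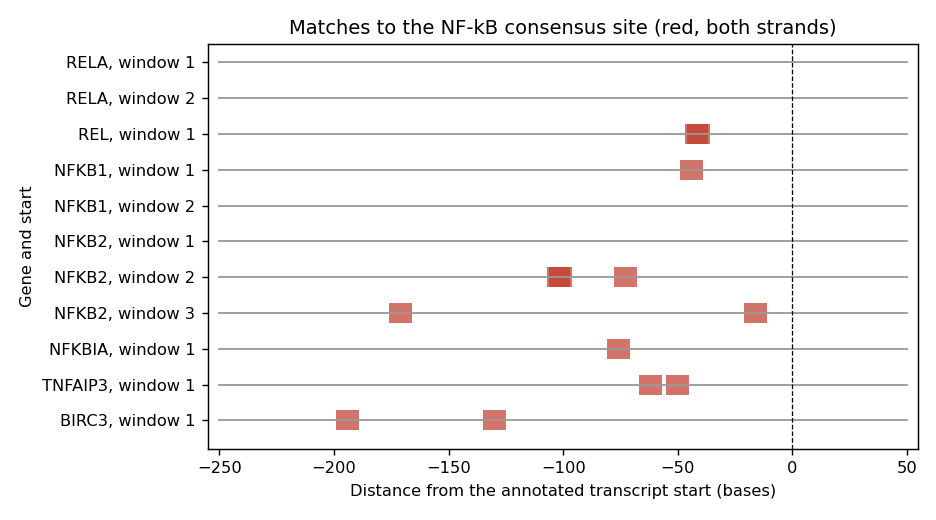
Matches to the NF-kB consensus site (red boxes; darker where matches overlap) by distance in bases from the annotated transcript start (dashed line), 1 row per RefSeq window of the 7 members with a window. The matches of BIRC3 lie farthest from the start among the members with a single window, and both RELA windows are empty.

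The iCLIP libraries held 400723 and 664777 gene counts (irradiated) and 781997 and 799709 (untreated), and the RNA-seq libraries held 13023903 (irradiated) and 13015406 (untreated). The p53 target genes CDKN1A and MDM2, named as a check of the dose, rose 7.63-fold and 5.15-fold in iCLIP (edgeR adjusted p = 9.6e-08 for both) and had RNA-seq ratios of 3.43 and 3.59. All 8 mesenchymal markers had RNA-seq counts and together took 8137 CPM (here plain counts per 1000000 gene counts) in irradiated and 7587 CPM in untreated cells. COL1A2 and TWIST1 among them had only 2 and 1 counts in irradiated and 6 and 3 counts in untreated cells, and the bone transcription factor gene RUNX2 fell in iCLIP to 0.645 of its untreated level (edgeR adjusted p = 0.00426), a call lost without untreated library 1 (edgeR adjusted p = 0.055). The 12 markers of leukocytes, epithelium and endothelium together took 13.4 CPM in irradiated and 12.1 CPM in untreated cells. Of these, VWF, an endothelial gene, had 31 counts in irradiated and 6 in untreated cells, a ratio of 5.11 (95% counting interval 2.10 to 15.0), and CDH1, an epithelial cadherin, had 16 counts in irradiated and 5 in untreated cells, a ratio of 3.16 (1.11 to 11.04). VWF and CDH1 were picked after their values were seen, and their part in the results was not tested. In iCLIP CDH1 instead had 0 and 0 counts in the irradiated and 4 and 7 in the untreated libraries. Among the other markers, PECAM1 had 39 RNA-seq counts in irradiated and 55 in untreated cells. KRT5 had 16 in irradiated and 22 in untreated cells, and EPCAM had 57 in irradiated and 55 in untreated cells. The RNA-seq intervals of PECAM1, KRT5 and EPCAM held 1.

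In RNA-seq, which had 1 library per condition and therefore no test, 3 of the 9 members that reached 100 counts in either library were at least 2-fold higher after irradiation with a 95% counting interval wholly above 1.5-fold: BIRC3, CSF1 and RELB. Among all 12977 genes with that many counts, 0.863% were past this size rule upward and 0.624% downward, and 0 members were past it downward. Ratios here are irradiated over untreated, scaled by TMM (a factor that corrects for library composition), and their intervals cover counting error only. Over all 10 members, 6 had an interval wholly above 1, 1 had an interval wholly below 1 and 3 had an interval that held 1. Among the 9 members with at least 100 counts, 5 had an interval wholly above 1, against 20.4% of all genes.

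BIRC3, which encodes an inhibitor of apoptosis and ubiquitin ligase of the tumour necrosis factor receptor complex, had 157 RNA-seq counts in irradiated and 38 in untreated cells, a ratio of 4.09 (95% counting interval 2.85 to 5.99). It had the highest ratio of the 10 members from the lowest count in untreated cells. CSF1, the growth factor of macrophages and their precursors, had 677 counts in irradiated and 240 in untreated cells, a ratio of 2.79 (2.404 to 3.25). LIF, a cytokine of the interleukin-6 family, had 1141 counts in irradiated and 684 in untreated cells, a ratio of 1.65 (1.499 to 1.82), below the 2-fold limit. TNFAIP3, a ubiquitin-editing enzyme that restrains NF-kB, had 98 counts in irradiated and 61 in untreated cells, a ratio of 1.59 (1.14 to 2.22), and was too sparse for the size rule. NFKBIA, the inhibitor that NF-kB induces to end its own activity, had 372 counts in irradiated and 342 in untreated cells, a ratio of 1.08 (0.926 to 1.25). Among these feedback inhibitors the interval of TNFAIP3 lay above 1 and that of NFKBIA held 1.

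CSF1 lies on chromosome 1 (109910506 to 109930992), LIF on chromosome 22 (30240453 to 30246759) and BIRC3 on chromosome 11 (102317484 to 102339403, all GRCh38.p14). In bulk RNA a change in the number of expressing cells and a change in RNA per cell cannot be told apart. The p53 targets CDKN1A and MDM2 were higher in the same irradiated library (ratios 3.43 and 3.59). NF-kB activity was not measured, so whether NF-kB or another factor lies behind a member's ratio was not tested.

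Of the subunits, RELB, a partner in dimers of the alternative pathway, had 449 RNA-seq counts in irradiated and 195 in untreated cells, a ratio of 2.28 (95% counting interval 1.92 to 2.71). NFKB1, which encodes a precursor that is cut to a DNA-binding subunit of the classical pathway, had 849 counts in irradiated and 547 in untreated cells, a ratio of 1.53 (1.38 to 1.71). The remaining subunits lay close to equality, among them NFKB2 and REL, which had matches in their promoter windows as NFKB1 did. NFKB2, whose precursor product is processed in the alternative pathway, had 780 counts in irradiated and 704 in untreated cells, a ratio of 1.10 (0.988 to 1.21). REL, a subunit best known from lymphocytes, had 242 counts in irradiated and 212 in untreated cells, a ratio of 1.13 (0.935 to 1.36). RELA, the main activating subunit of the classical pathway, had 1365 counts in irradiated and 1492 in untreated cells, a ratio of 0.905 (0.840 to 0.974), and was the only member whose interval lay below 1, as it did in 22.0% of all genes with at least 100 counts. Of the 6 members with a match in their promoter windows, BIRC3, NFKB1 and TNFAIP3 had intervals above 1, and REL, NFKB2 and NFKBIA had intervals that held 1.

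**Figure D2:**
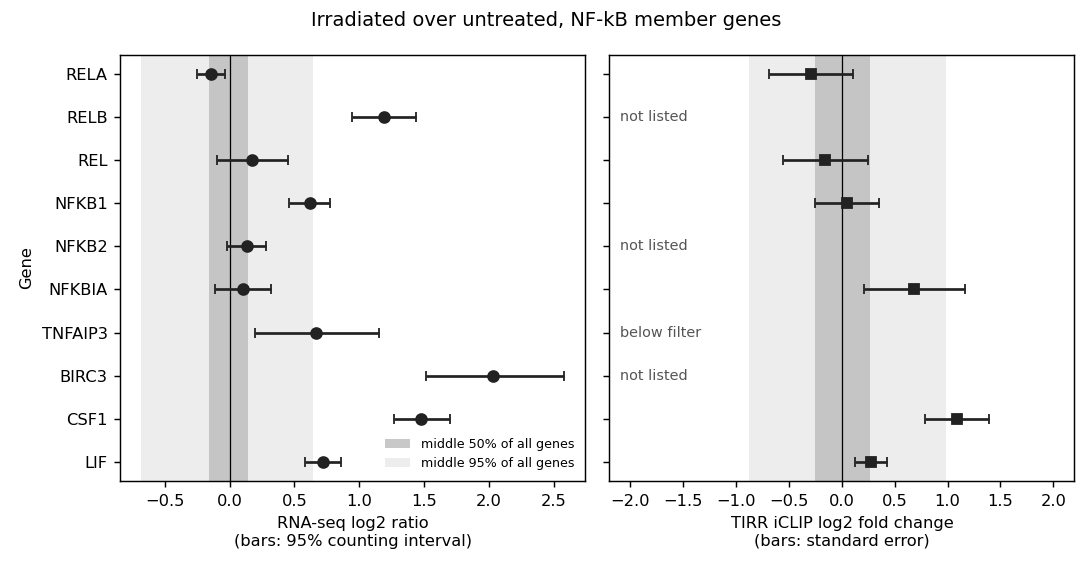
Difference between irradiated and untreated cells for each member, as the RNA-seq log2 ratio with its 95% counting interval (left, 1 library per condition) and as the iCLIP log2 fold change with its standard error (right, 2 libraries per group). Grey bands hold the middle 50% and 95% of all genes; on the left BIRC3, CSF1 and RELB lie farthest right, and on the right CSF1 alone lies beyond the band of the middle 95%.

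In the TIRR iCLIP libraries 0 of the 6 members that passed the filter on low counts were called at an adjusted p of 0.05 (edgeR, quasi-likelihood F test, adjusted by Benjamini-Hochberg over 9230 genes). Of all tested genes 3.5% were called, 2.43% higher and 1.07% lower. At an unadjusted p of 0.05, 1 member passed, CSF1, in edgeR and in DESeq2 alike, against 14.5% of all genes in edgeR (8.31% upward). DESeq2 called 0 members, but it gave an adjusted p for only 1 of the 6. For 2 members, CSF1 and LIF, the lower irradiated library still exceeded the higher untreated one, and for 1, RELA, the order was the opposite. The corresponding shares of all tested genes were 22.0% above and 22.0% below.

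CSF1 had 25 and 41 iCLIP counts in the irradiated libraries, against 31 and 17 in the untreated ones, which were deeper. In CPM, from here on scaled by TMM, it had 64.3 and 62.7 in irradiated and 38.8 and 20.7 in untreated cells. The irradiated libraries were close to each other and the untreated ones were not. Its log2 fold change was 1.09 ± 0.31 (SE; 2.13-fold, edgeR unadjusted p = 0.0022, adjusted p = 0.0581). CSF1 passed without untreated library 1 (a log2 change of 1.59 at an edgeR adjusted p of 0.0106). It also passed when irradiated library 1 was omitted (1.08 at 0.0328), but without untreated library 2 the edgeR estimate was 0.70 (adjusted p = 0.502). Over the edgeR alternatives its adjusted p ranged from 0.0106 to 0.502, and DESeq2 gave none. Its RNA-seq ratio was 2.79; whether the changes in the 2 assays differ was not tested.

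LIF had the most iCLIP counts of the members, 81 and 152 in the irradiated and 150 and 147 in the untreated libraries. These were 208.3 and 232.6 CPM in irradiated and 187.6 and 179.3 CPM in untreated cells, so the groups did not overlap but lay close together. Its log2 fold change was 0.28 ± 0.16 (SE; 1.21-fold, edgeR adjusted p = 0.450). The overlapping antisense genes LIF-AS1 and LIF-AS2 had at most 1 count in any iCLIP library. NFKBIA had 7 and 16 counts in the irradiated and 7 and 15 in the untreated libraries. In CPM these were 18.004 and 24.5 in irradiated and 8.75 and 18.3 in untreated cells, the groups overlapped, and the log2 fold change was 0.69 ± 0.48 (SE; edgeR adjusted p = 0.565). The change was 0.25 without untreated library 1 and 1.29 without untreated library 2. TNFAIP3 had only 5 and 3 counts in the irradiated and 4 and 1 in the untreated libraries and did not pass the filter. The ratio of its summed and scaled counts was 2.49 (95% counting interval 0.717 to 9.66), which leaves no direction detectable at this depth. WAKMAR2, which overlaps TNFAIP3, had 2 and 3 counts in irradiated and 4 and 4 in untreated libraries; whether counting used strand is not stated in the labels.

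The subunit genes were sparse in iCLIP, and none was called. NFKB1 had 12 and 35 counts in the irradiated and 39 and 31 in the untreated libraries, or 30.9 and 53.5 CPM in irradiated and 48.8 and 37.8 CPM in untreated cells. Its irradiated libraries lay on either side of both untreated ones, and the log2 fold change was 0.04 ± 0.30 (SE; edgeR adjusted p = 0.976); its sign turned under several alternatives. REL had 12 and 12 counts in the irradiated and 17 and 25 in the untreated libraries, or 30.9 and 18.4 CPM in irradiated and 21.3 and 30.5 CPM in untreated cells. The groups overlapped, and the log2 fold change was -0.16 ± 0.40 (SE; edgeR adjusted p = 0.914). RELA had 8 and 13 counts in the irradiated and 17 and 23 in the untreated libraries, or 20.6 and 19.9 CPM in irradiated and 21.3 and 28.1 CPM in untreated cells. The irradiated values lay below the untreated ones by a narrow margin, and the log2 fold change was -0.29 ± 0.40 (SE; edgeR adjusted p = 0.815). With libraries thinned to equal gene counts it was -1.14 (edgeR adjusted p = 0.589). RELA-DT, which overlaps RELA, had 1 and 2 iCLIP counts in irradiated and 1 and 0 in untreated libraries. The standard errors of the 6 tested members ran from 0.16 for LIF to 0.48 for NFKBIA.

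**Figure D3:**
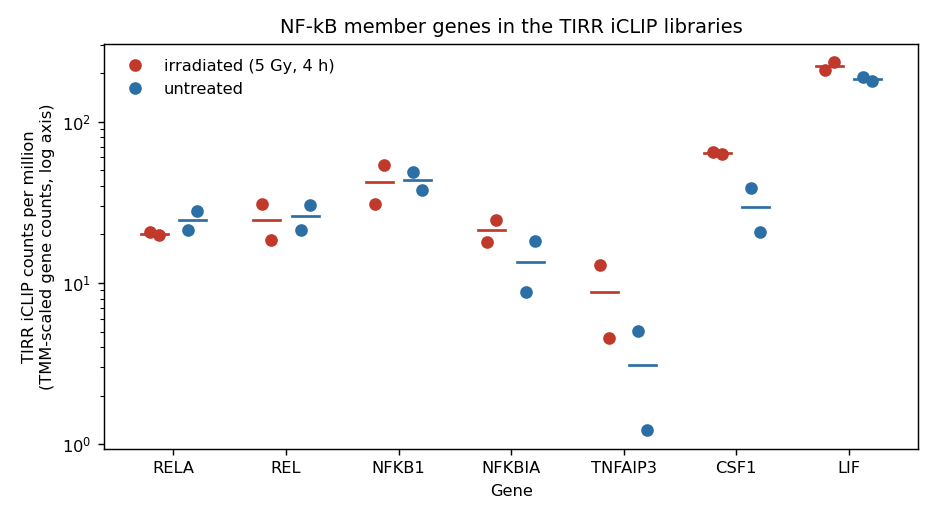
TIRR iCLIP CPM (TMM-scaled, log axis) of the 7 members listed in iCLIP, with 1 point per library and a line at the mean of each group (n = 2). LIF stands highest in both groups, and the irradiated points of CSF1, at 64.3 and 62.7, lie above its untreated points, at 38.8 and 20.7.

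The 3 members that the iCLIP tables do not list differed in RNA-seq level: in untreated cells NFKB2 had 704 counts, RELB 195 and BIRC3 38, the fewest of the 10 members. The iCLIP tables list only genes with at least 1 count, so a count of 0 and a gene outside the annotation used for counting cannot be told apart. Of 2012 genes with RNA-seq counts between 563.2 and 880 in untreated cells, near those of NFKB2, 79.9% were listed in some iCLIP library. The like share was 77.4% of 1769 genes around RELB and 73.0% of 1170 genes around BIRC3. Even among the 3090 genes with at least 1000 RNA-seq counts in untreated cells, 79.3% were listed. No iCLIP level, change or limit is therefore given for RELB, NFKB2 and BIRC3.

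As shares of gene counts, the listed members together took 0.0374% and 0.0409% of the irradiated and 0.0339% and 0.0324% of the untreated iCLIP libraries. LIF alone took 0.0215% ± 0.00188 in irradiated and 0.0188% ± 0.000566 in untreated cells (SD, n = 2 each). In irradiated library 1 its share was 0.0202% (exact Clopper-Pearson 95% interval 0.0161 to 0.0251). CSF1 took 0.0062% ± 0.0000504 in irradiated and 0.00304% ± 0.0013 in untreated cells (SD, n = 2 each). In RNA-seq all 10 members together took 0.0471% (95% interval 0.0459 to 0.0483) in irradiated and 0.0347% (0.0337 to 0.0357) in untreated cells.

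Each listed member's iCLIP share was set against its RNA-seq share in untreated cells, as a description of how much of its RNA came down with TIRR relative to its level. The genes compared had at least 50 RNA-seq counts and at least 1 iCLIP count, so ranks hold only among genes listed in iCLIP. LIF was 3.58 times as abundant in iCLIP as in RNA-seq (95% counting interval 3.11 to 4.10), higher than 82.5% of the 11146 genes compared. RELA stood at the other end with 0.226 times (0.157 to 0.302), higher than 19.5% of genes. With shares of all counts, intergenic ones included, the log2 ratio was 2.16 for LIF instead of 1.84, and -1.83 for RELA instead of -2.15. The intervals do not cover this choice. CSF1 had 1.68 times (1.18 to 2.25) and REL 1.66 times (1.14 to 2.28). NFKB1 had 1.07 times (0.809 to 1.35), TNFAIP3 0.807 times (0.211 to 1.66) and NFKBIA 0.551 times (0.327 to 0.815). All members but RELA and LIF lay within the middle 50% of genes, whose log2 ratios ran from -1.72 to 1.29. In irradiated cells the ratio was 2.47 for LIF and 0.198 for RELA, and NFKB1 had 0.648. TNFAIP3, with few counts, had 1.26 in irradiated and 0.807 in untreated cells, and with shares of all counts its untreated log2 ratio was 0.0106, so its side of 1 is not settled. The cells of the 2 assays differed in genotype, and no library without the tag was used. Binding to TIRR, background and a different RNA level in the tagged cells therefore cannot be told apart in these ratios. Other differences between the assays were not tested.

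**Figure D4:**
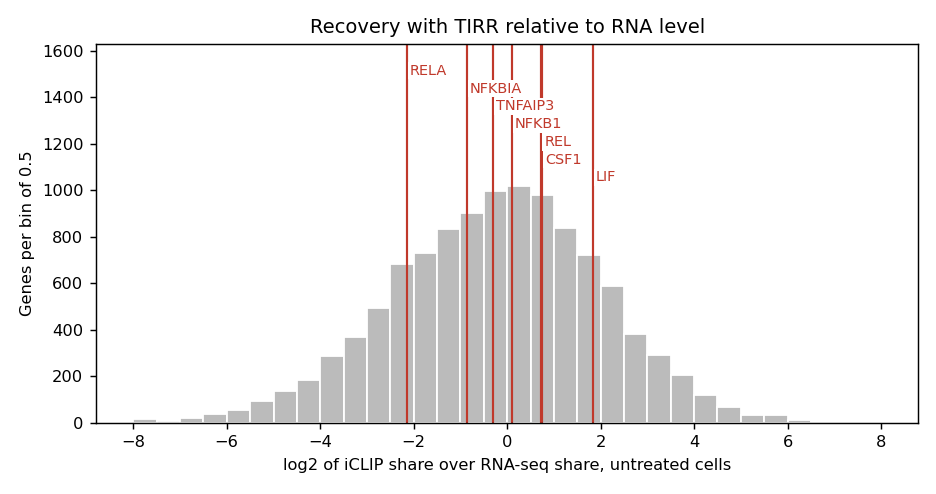
Number of genes by the log2 of iCLIP share over RNA-seq share in untreated cells, in bins of 0.5, over 11146 genes with iCLIP counts. Red lines mark the 7 members listed in iCLIP. RELA lies left of the middle 50% of genes and LIF right of it.

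Levels between genes were compared per kb of annotated gene length, introns included. In RNA-seq this length ran from 3237 bases for NFKBIA to 115972 for NFKB1. Dividing by it lowers the values of genes with long introns, so the order follows gene length as well as RNA level. Before this division RELA had 115 CPM and NFKB1 42.0 CPM in RNA-seq of untreated cells (without TMM). In RNA-seq of untreated cells RELA was highest with 12.1 CPM per kb, here without TMM. LIF with 8.33 and NFKBIA with 8.12 followed and did not differ beyond their counting intervals, and NFKB2 had 6.43. CSF1 had 0.889, RELB 0.408, NFKB1 0.362, REL 0.326 and TNFAIP3 0.291, and of these the neighbours from RELB to TNFAIP3 had overlapping intervals. BIRC3 was lowest with 0.133. In irradiated cells LIF with 13.9 stood above RELA with 11.04, and BIRC3 with 0.549 stood beside NFKB1 with 0.562, with overlapping intervals, while REL had the lowest value, 0.372, with an interval that overlapped that of TNFAIP3 at 0.467. In iCLIP the order was led by LIF with 34.2 ± 2.97 in irradiated and 29.8 ± 0.897 in untreated cells (CPM per kb, SD, n = 2 each). NFKBIA had 5.66 ± 1.27 in irradiated and 3.77 ± 1.89 in untreated cells, CSF1 2.99 ± 0.0243 in irradiated and 1.47 ± 0.626 in untreated cells, and RELA 2.08 ± 0.0304 in irradiated and 2.66 ± 0.523 in untreated cells (SD, n = 2 each). REL, NFKB1 and TNFAIP3 had means below 0.6 in both groups.

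The pathway around the members was followed with gene lists, which were also chosen with earlier results of these data known. Their contrasts with all genes are descriptions only. In RNA-seq the 9 members with at least 100 counts had a median log2 ratio of 0.62, against 0.00 over all genes. The lists of genes that carry the signal to NF-kB had medians nearer to that of all genes. Of 12 IKK complex genes and kinases 0 were past the size rule (median log2 ratio 0.01), and IRAK1, a kinase of the interleukin-1 receptor, had a ratio of 1.03. Of 15 receptor adaptors and ubiquitin enzymes 0 were past it (median -0.04), with a ratio of 1.01 for the receptor gene TNFRSF1A and 0.813 for SHARPIN, a subunit of the linear ubiquitin ligase. Of 8 genes of the IkB family and its partners 0 were past it (median 0.07). Of 7 genes of the route from DNA damage to NF-kB 0 were past it (median 0.14), and 4 had an interval wholly above 1 and 1 had one wholly below. Over all genes with at least 100 counts the shares were 20.4% above and 22.0% below, and 0.863% were past the size rule upward and 0.624% downward. At such low shares, 0 in a list of this size does not set the list apart from all genes. PARP1 had a ratio of 0.979. Picked after their values were seen, PIDD1, an adaptor in NEMO modification, had 1.66 (1.46 to 1.88) and ATM 1.37 (1.22 to 1.54). Picked likewise, TRAF3 of the adaptor list had 1.66 (1.44 to 1.92). The intervals lay above and below 1 for 1 and 3 genes of the kinase list, 2 and 4 of the adaptor list and 2 and 1 of the IkB list. In iCLIP 0 of the 7, 9, 12 and 5 tested genes of the IkB, kinase, adaptor and DNA damage lists were called by edgeR. Of all tested genes only 3.5% were called, so these zeros too do not set the lists apart.

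Of 36 further NF-kB target genes, a list chosen with earlier results of these data known, 19 had at least 100 RNA-seq counts. Their median log2 ratio was 0.33. Of these 19, 12 had a counting interval wholly above 1 and 2 had one wholly below, against 20.4% and 22.0% of all genes. Of the 19, 1 was past the size rule upward (0.863% of all genes), TNFRSF9, a costimulatory receptor of the tumour necrosis factor family, with 226 counts in irradiated and 104 in untreated cells, a ratio of 2.15 (95% counting interval 1.696 to 2.74). In iCLIP 1 of the 12 tested genes of this list rose (2.43% of all tested genes), BCL2L1, an inhibitor of apoptosis. It had 179 and 317 counts in the irradiated and 153 and 152 in the untreated libraries, or 472.7 ± 17.4 CPM in irradiated and 188.4 ± 4.17 CPM in untreated cells (SD, n = 2 each). Its log2 fold change was 1.33 ± 0.14 (SE; 2.51-fold, edgeR adjusted p = 1.31e-05), and it was called under every alternative run. In RNA-seq BCL2L1 had a ratio of 1.30 (1.22 to 1.39). CD44, an adhesion receptor, had an iCLIP log2 change of 0.87 (adjusted p = 0.0595 in edgeR) and an RNA-seq ratio of 1.31. SQSTM1, an autophagy receptor, had an iCLIP log2 change of 0.47 (adjusted p = 0.146 in edgeR) and an RNA-seq ratio of 1.04. SOD2, the mitochondrial superoxide dismutase, had an iCLIP log2 change of 0.30 (adjusted p = 0.680 in edgeR) and an RNA-seq ratio of 1.06.

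Among 12 receptors and relatives of the ligand and inhibitor members, 1 of the 10 with enough RNA-seq counts was past the size rule upward, against 0.863% of all genes. It was IL11, a cytokine related to LIF, with 186 counts in irradiated and 80 in untreated cells, a ratio of 2.30 (95% counting interval 1.76 to 3.03). In iCLIP IL11 had 12 and 21 counts in the irradiated and 13 and 12 in the untreated libraries. Its log2 change was 1.03 (adjusted p = 0.198 in edgeR) and 0.39 in thinned libraries. Of the 11 tested genes of this list 0 were called, against 3.5% of all tested genes. STAT3, through which LIF signals, had a ratio of 1.12 in RNA-seq, and OSMR, a receptor of the same cytokine family, 0.919. BIRC5, a mitotic relative of BIRC3, had 2314 RNA-seq counts in irradiated and 3225 in untreated cells, a ratio of 0.710 (0.672 to 0.749). Its iCLIP log2 fold change was -2.13 (edgeR adjusted p = 0.0641); it was called with no filter on low counts (edgeR adjusted p = 0.034), and over the edgeR alternatives that tested it the adjusted p ran from 0.034 to 0.645.

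**Figure D5:**
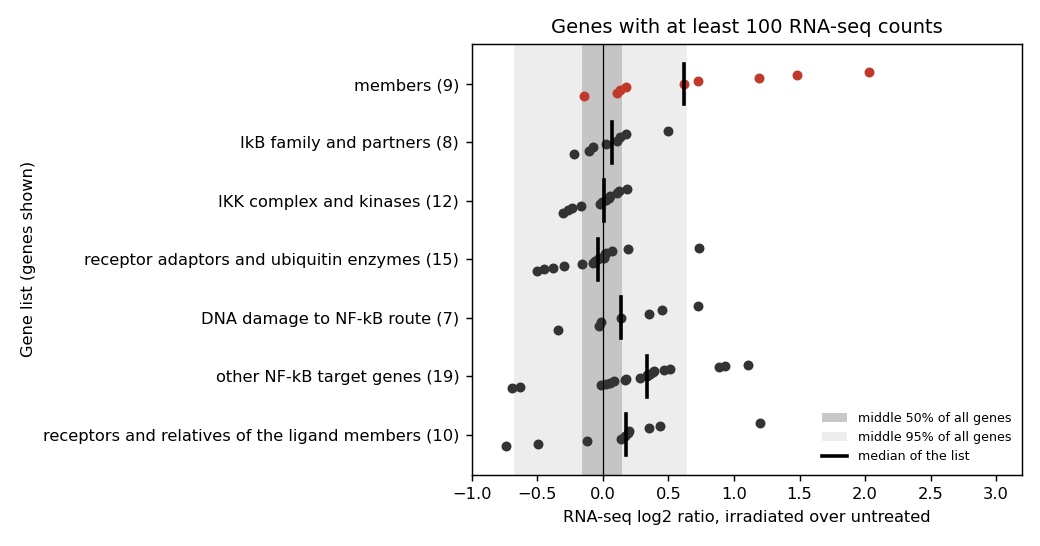
RNA-seq log2 ratio, irradiated over untreated, of each gene with at least 100 counts, by list, with the median of each list as a black bar and the middle 50% and 95% of all genes as grey bands. The members (red) have a median of 0.62, the further target genes 0.33 and the kinases 0.01.

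By the distance between log2 values of CPM plus 1 (without TMM), 13152 genes listed in every library were compared. Those most like NFKB1 in level over the 6 libraries were DICER1, ZFP91-CNTF and VIRMA. Their distances were 0.478, 0.486 and 0.535, against a median of 4.77. The same could not be done for BIRC3, which the iCLIP tables do not list.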

How the data were processed

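The measurements were iCLIP of FLAG-tagged TIRR (2 irradiated and 2 untreated libraries) and RNA-seq (1 and 1). The tables that the authors deposited give cDNA counts as whole numbers for each gene, 1 line for intergenic counts, a gene length, and each gene's percent of all cDNA, per the file headers. Percent values in the text were recomputed over gene counts. The build is hg38 and kallisto 0.44.0 is named for RNA-seq, per the submitters' processing notes; the aligner, duplicate removal, annotation and strand setting are not stated there or in the labels. Intergenic counts (30.6% to 31.3% of iCLIP, 44.4% of RNA-seq) entered neither library sizes nor tests.

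iCLIP groups were compared with edgeR 4.0.16 in R 4.3.3 (TMM scaling, filterByExpr, quasi-likelihood F test, two-sided, Benjamini-Hochberg over all tested genes at 0.05); DESeq2 1.42.0, other scalings, filters, thinning, a replicate block and leaving out libraries were alternatives. RNA-seq ratios carry exact conditional 95% intervals, and shares carry exact Clopper-Pearson intervals. Intervals cover counting error only. The size rule asked for 100 counts in either library, 2-fold, and an interval beyond 1.5-fold. Share ratios used a prior count of 0.5 and genes with at least 50 RNA-seq counts and at least 1 iCLIP count. Their intervals came from summed counts without the prior count. The edgeR step and the intervals were tested on simulated data. Python 3.11.15, numpy 2.4.6, pandas 2.3.3, scipy 1.17.1 and matplotlib 3.10.9 did the rest.

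The members and lists were chosen with earlier results of these data known. Named by rule are all members, CDKN1A, MDM2 and NUDT16L1 as checks, and the 3 genes nearest to NFKB1. From each list the rule took the genes called or past the size rule and some of the 3 others with the most RNA-seq counts. Genes that overlap members are named too. The remaining genes, such as PIDD1, ATM, TRAF3, VWF, CDH1 and TRAF1, were picked outside this rule, most of them after their values were seen. NUDT16L1 itself had an iCLIP log2 change of 0.72 (adjusted p = 0.213 in edgeR).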

Additional observations from a re-analysis of the deposited data

How the results depend on the processing

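The number of iCLIP genes called, 323, became 122 with DESeq2, 190 with a replicate block and 154 with libraries thinned to equal gene counts, and 186 to 421 with 1 library left out. Scaled by gene-count totals, 58.2% of the calls were rises, against 69.3% with TMM. The count of members called was 0 to 1 with 1 library left out, the 1 being CSF1, and 0 under the other alternatives. The numbers 1 and 2 are only names, as the labels tie no libraries together: across 9230 genes the differences between replicates 1 and 2 of both groups had a correlation of -0.0826, and the replicate block called 0 members. With a limit of 1.5-fold and an interval beyond 1, 5 members passed in RNA-seq, all upward, against 3 under the size rule. Of all 12977 genes with at least 100 counts, 855 passed in either direction, against 193. Those upward were 389 (3.0%) and 112 (0.863%).

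The log2 fold change of NFKB1 in iCLIP turned to -0.0212 with gene-count totals, -0.000341 with DESeq2 and -0.31 with thinning, and ran from -0.48 to 0.31 with 1 library left out. That of REL ran from -0.49 to 0.25, with 0.13 without untreated library 2 and 0.25 without irradiated library 2; NFKB1 had -0.15 and -0.48 there. The causes were not tested. RUNX2 lost its call with the replicate block (edgeR adjusted p = 0.055), with thinning (0.0805) and without untreated library 1 (0.055). The RNA-seq ratios of the members kept their direction under both other scalings. Depth limits the iCLIP values, since 6 of the 7 listed members had 41 counts or fewer in every library.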

Other observations

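Several NF-kB targets and receptors were too sparse for the size rule, and the following were picked after their values were seen. TRAF1, an adaptor induced by NF-kB, had 35 RNA-seq counts in irradiated and 7 in untreated cells, a ratio of 4.94 (95% counting interval 2.16 to 13.2). CXCL8, which encodes the chemokine interleukin-8, had 14 counts in irradiated and 2 in untreated cells, a ratio of 6.92 (1.59 to 62.8). CSF1R, the receptor of CSF1, had 29 counts in irradiated and 8 in untreated cells, a ratio of 3.58 (1.599 to 9.07). Some other sparse targets had intervals that held 1, among them ICAM1 with a ratio of 0.824 (0.199 to 3.24) and CSF2 with 0.989 (0.369 to 2.65). Several genes with enough counts had ratios below 1 but within 2-fold. Among them were ZC3H12A with 0.645 (0.476 to 0.870), TRAF5 with 0.705 (0.570 to 0.871), CCL2 and SOCS3. CCL2, a monocyte chemokine, had 259 counts in irradiated and 414 in untreated cells, a ratio of 0.619 (0.528 to 0.724). SOCS3, an inhibitor of signalling by LIF, had 397 counts in irradiated and 654 in untreated cells, a ratio of 0.600 (0.529 to 0.681). With 1 RNA-seq library per condition, none of these has a replicate check.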
